A study of Oryza sativa with 58 samples.

Results

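The genes described here are 150 rice genes whose transcripts were more abundant in young leaf than in panicle, root and mature leaf in each of 3 varieties, MH63, ZS97 and Nip. They are 150 of 57174 genes listed in the files under MH63 identifiers (0.262%). The members were chosen by the measured values themselves. For each variety a score was taken as log2(FPKM + 1) of the mean of the 2 young leaf libraries minus the highest log2(FPKM + 1) among the means of the other 3 tissues, and the 150 genes with the highest minimum score over the 3 varieties were kept. FPKM, fragments per kilobase of transcript relative to the mapped fragments of the library, is a level scaled to gene length and library size. Since these levels chose the members, their excess in young leaf is given as a description, with no test.

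The 24 libraries used were made by RNA-Seq of total RNA, 2 for each tissue and variety. Young leaves came from 2-week-old seedlings in hydroponic culture and roots from seedlings 7 d after planting on wet filter paper, both in a phytotron with 14 h of light at 32 °C and 10 h of dark at 28 °C. Panicles of 1.5 to 4.5 cm and mature leaves (the flag leaf when flowering was induced) came from plants moved to the field as seedlings of about 20 d, so leaf age, growing place and light cannot be told apart between young and mature leaf. The plants carried no transgene and received no treatment. The labels do not say whether the 2 libraries of a group came from separate plants, and the p-values measure the spread between these libraries only. A further 34 young leaf libraries of 17 other varieties, listed under other identifiers, were not analysed here.

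A young rice leaf holds, along its length, cells that divide, cells that elongate and cells that assemble chloroplasts. A flag leaf, once fully expanded, exports sugar to the panicle. Genes that rank as young leaf genes against a flag leaf can therefore belong to leaf growth, to the building of the photosynthetic machinery or to responses to light and to the seedling's surroundings. The table of gene names used here matched 0 of the 150 identifiers, so no name, role or sequence is given for any member, no marker genes of the tissues were checked, and the members are grouped below by the tissue in which they came next.

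The series as a whole set some limits on these values. The relative depth of the libraries, read from the steps between low values and set to 1 for MH63 young leaf replicate 1, lay between 0.231 and 1.08 in young leaf, 0.176 and 1.63 in panicle, 0.911 and 1.87 in root, and 0.307 and 1.06 in mature leaf. FPKM carries no read counts, so counting errors are unknown. A value of exactly 0 can be a failed estimate, and such genes are described as listed at 0. The column numbers of the deposited values fit 2 joint quantification runs. A run of 14 libraries would hold MH63 and the young leaf, panicle and root libraries of ZS97. Another of 10 would hold Nip and the mature leaf libraries of ZS97. No label names these runs, so a run below means this inferred grouping. Values from different runs are set side by side below without a test, and the ZS97 score itself spans both runs.

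The 150 members held between 1.99% and 2.84% of the summed FPKM of the young leaf libraries and between 0.0569% and 0.139% of the sum in the other 18 libraries. Their mean young leaf level over the 3 varieties ranged from 3.84 to 2220 FPKM with a median of 26.7. The level reached 100 FPKM in 36 members and stayed below 10 FPKM in 22. The minimum score had a median of 2.24, exceeded 3 in 30 members and lay below 2 in 50. In 136 members the lowest of the 6 young leaf libraries was above the highest of the 18 other libraries. Within a variety, both young leaf libraries lay above the other 6 in 147 members in MH63, all but 2 in ZS97 and all 150 in Nip.

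**Figure D1:**
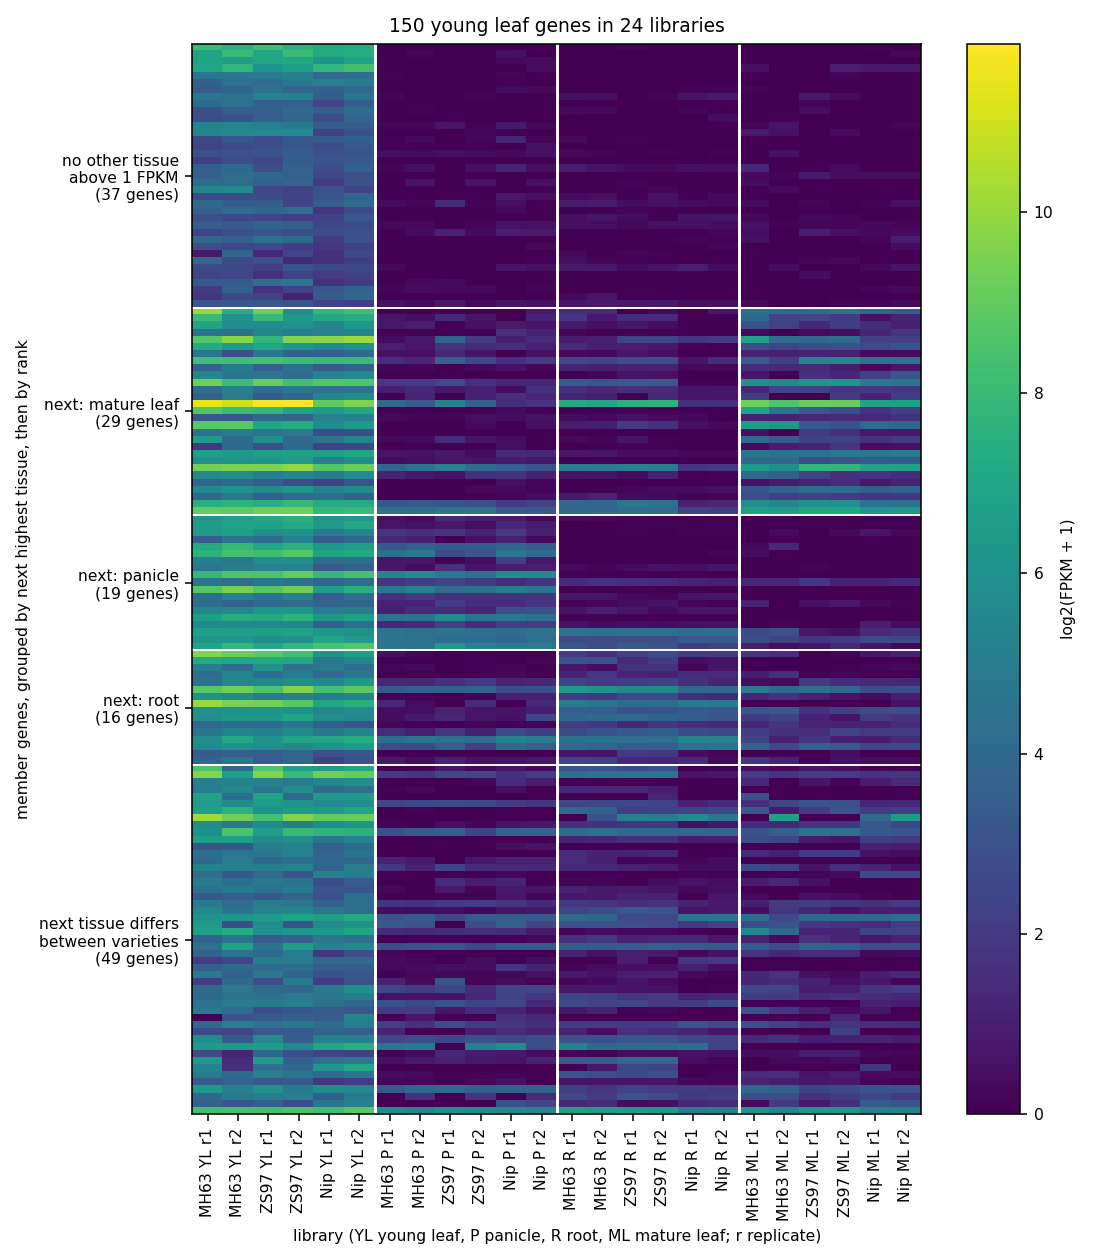
Level of each of the 150 members (rows) in each of the 24 libraries (columns), as log2(FPKM + 1) by colour, with members grouped by the tissue that came next after young leaf and ordered by rank within a group. All 6 young leaf columns are bright, 37 members are dark in every other tissue, and the 29, 19 and 16 members whose next tissue was mature leaf, panicle or root show a fainter block in that tissue.

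The highest minimum scores belonged to genes that were almost confined to the young leaf libraries. MH03g0541100 ranked first, with a minimum score of 7.23. Its levels were 277 and 191 FPKM in the 2 young leaf libraries of MH63, 297 and 190 in ZS97 and 153 and 162 in Nip, and no other library exceeded 0.134 FPKM. MH06g0267900 followed with a score of 7.03 and young leaf levels of 120 and 256.99 FPKM in MH63, 130 and 271 in ZS97 and 146 and 170 in Nip. It was listed at 0 in 15 of the 18 other libraries and reached at most 0.428 FPKM there, in Nip panicle replicate 1.

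MH02g0224000 had a score of 6.27 and young leaf levels between 68.8 and 133 FPKM, and was listed at 0 outside young leaf except for 0.202 and 0.292 FPKM in the panicle libraries of Nip. MH03g0148000, with a score of 5.88, was lowest in ZS97 (73.8 and 95.0 FPKM), intermediate in MH63 (123 and 214) and highest in Nip (226 and 330). Outside young leaf its highest value was 0.910 FPKM, in a mature leaf library of ZS97. MH03g0282900, ranked 12th, was expressed at a lower level, between 15.5 and 35.1 FPKM in young leaf and at most 0.126 FPKM elsewhere. In these 5 genes no other tissue mean was above 1 FPKM, so the score was set by the young leaf level and by the pseudocount of 1.

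For MH06g0495300 and MH06g0059000 panicle came next in all 3 varieties. MH06g0495300 had a score of 5.77, with young leaf levels of 72.4 and 98.8 FPKM in MH63, 144 and 185 in ZS97 and 74.2 and 86.0 in Nip, and panicle levels between 0.187 and 1.63 FPKM. MH06g0059000 had a score of 5.70, with young leaf levels from 82.8 to 150.8 FPKM and panicle levels from 0.371 to 1.43 FPKM, and was listed at 0 in all 12 root and mature leaf libraries.

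Root came next for MH11g0544800 and MH03g0227100 in each variety. MH11g0544800 had a minimum score of 4.36, set by Nip. Its young leaf levels were 781 and 594 FPKM in MH63, 452 and 323 in ZS97 and 68.8 and 106 in Nip, while its root levels were close to each other, between 2.09 and 5.05 FPKM in the 6 libraries. MH03g0227100 had a minimum score of 4.16, set by MH63, with 151.8 and 134.4 FPKM in young leaf and 7.28 and 6.83 FPKM in root. In Nip both levels were lower, at 26.5 and 44.5 FPKM in young leaf and 0.359 and 0.517 FPKM in root.

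The remaining 3 of the 12 leading genes had a next tissue that differed between varieties. MH04g0504900 had a minimum score of 4.301 and young leaf levels between 29.9 and 57.6 FPKM. Its next tissue was mature leaf in MH63 and ZS97, where the 2 libraries of MH63 read 1.62 and 0 FPKM, and panicle in Nip, at 1.90 and 0.962 FPKM. MH04g0681700 and MH01g0548100 had root next in MH63 and ZS97 and were nearly without root transcripts in Nip. Their young leaf replicates stood far apart, and both genes are taken up again with the replicate differences below.

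**Figure D2:**
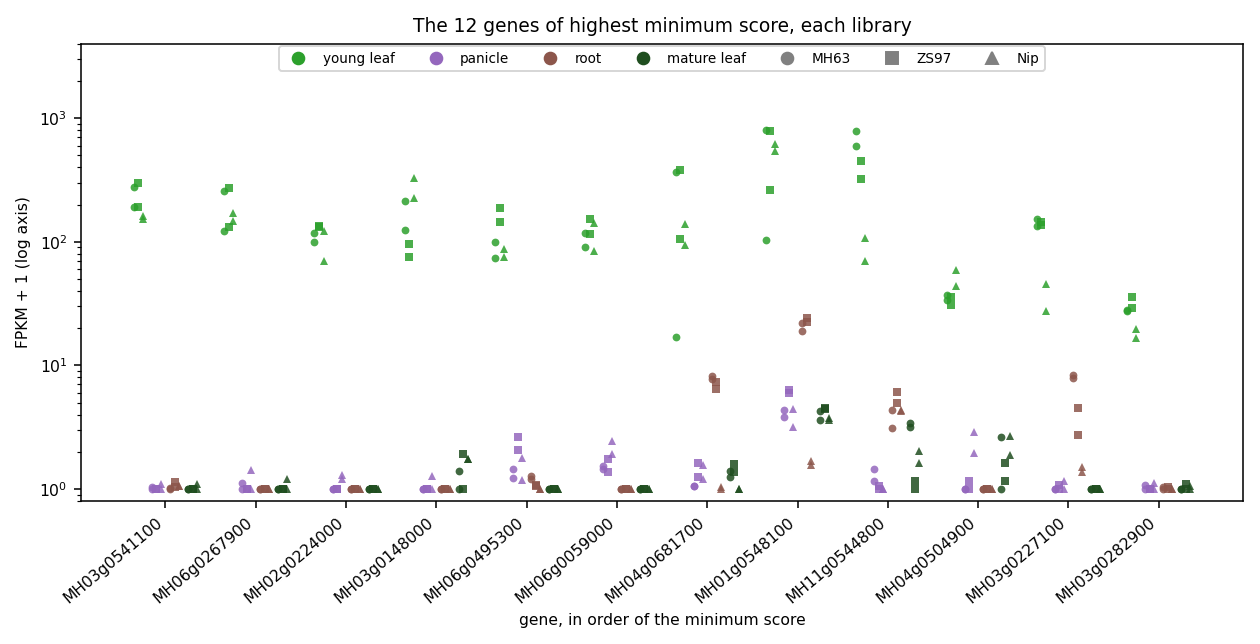
FPKM + 1 on a log axis in each of the 24 libraries for the 12 members of highest minimum score, ordered by that score, with colour for tissue and marker shape for variety. The young leaf points of each gene lie above all its other points, and the gap is smallest in MH04g0681700, with 16.1 FPKM in MH63 young leaf replicate 2 against 7.13 FPKM in a root library of MH63.

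The 6 members with the highest mean young leaf level were, apart from MH01g0548100, not those with the highest scores. MH07g0397700 was the most abundant, with 2844 and 2031 FPKM in MH63, 3488 and 3738 in ZS97 and 481 and 739 in Nip. It ranked 72nd because mature leaf also held 604 and 382 FPKM in MH63, 579 and 558 in ZS97 and 120 and 117 in Nip. MH05g0326000 averaged 712 FPKM in young leaf. Its Nip mature leaf libraries read 3.72 and 3.64 FPKM, whereas those of MH63 read 112 and 18.9 FPKM, a gap between replicates of one group. MH07g0496800 averaged 692 FPKM, with mature leaf next in all 3 varieties, at 92.9 and 56.5 FPKM in MH63, 234 and 229 in ZS97 and 114 and 117 in Nip.

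MH02g0109900 averaged 654 FPKM in young leaf and was listed at 0 in all 6 panicle libraries. Its values elsewhere jumped between replicates, with 0 and 7.04 FPKM in MH63 root, 0 and 108 FPKM in MH63 mature leaf and 16.4 and 91.0 FPKM in Nip mature leaf, so its tissue comparisons rest on unstable estimates. MH11g0545500 averaged 527 FPKM in young leaf, and its root levels were alike in the varieties, at 30.97 and 22.05 FPKM in MH63, 17.52 and 18.7 in ZS97 and 28.5 and 28.1 in Nip. Its young leaf level was not, since Nip (124.8 and 179 FPKM) lay below ZS97 (639 and 439) and MH63 (1080 and 698).

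At the lower end the selection ended on a continuum. The last member, MH08g0047200, had a minimum score of 1.66 and the gene before it, MH05g0565300, also 1.66. The first 2 genes outside, MH07g0116100 and MH05g0427400, both had 1.65. MH08g0047200 was abundant in every variety, with 234 to 642 FPKM in young leaf and 73.0 to 137 FPKM in mature leaf. MH05g0427400 by contrast read 5.09 to 8.73 FPKM in young leaf and at most 1.31 FPKM elsewhere, so genes of very different level had nearly the same score.

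By the tissue that came next, 37 members had no mean above 1 FPKM outside young leaf, and 33 had none of the 18 other libraries at or above 1 FPKM. The next tissue was the same in all 3 varieties for 29 members with mature leaf, 19 with panicle and 16 with root. It differed between varieties for the other 49. Members with panicle next had the highest median young leaf level, 83.0 FPKM, followed by 60.9 FPKM with mature leaf next, 54.2 with root next, 25.05 where the next tissue differed and 11.3 FPKM where no other tissue was above 1 FPKM. These groups follow from the same values as the score and are a description.

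Among the other 3 tissues, differences were tested by limma, fitted once per variety to log2(FPKM + 1). A gene was called where its Benjamini-Hochberg adjusted p was under 0.05 and its log2 difference over 1.5 in size. All 150 members passed the filter on low values (some group mean over 1 FPKM), through young leaf where not otherwise. In MH63, 36 members were called between mature leaf and panicle (24%, against 37.5% of all 23257 genes tested). Mature leaf was the higher in 23 and panicle in 13, against 4324 and 4400 of all genes. In Nip 37 were called (24.7%, against 32.3% of 22774 genes). Mature leaf was the higher in 22 and panicle in 15, against 3647 and 3706 of all genes. Both varieties shared 16 calls towards mature leaf (10.7%, against 14.4% of the 20845 genes tested in both) and 11 towards panicle (7.33%, against 13.9%). Calls in opposite directions were found for 0 members and for 15 of all these genes (0.0720%). The median log2 difference was 0.10 over the members and -0.0017 over all genes in MH63, and -0.04 and -0.10 in Nip. The selection kept the members low in all 3 of these tissues, so nothing is read from a share under the background.

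MH04g0396000 had the largest difference towards mature leaf in MH63. Its mature leaf libraries held 96.8 and 80.6 FPKM and its panicle libraries 0 and 0.0548 FPKM, a log2 difference of 6.44 ± 0.15 (SE, adjusted p = 2.42e-06). Its young leaf level was 441 and 445 FPKM in MH63, 126 and 161.2 in ZS97 and 54.5 and 81.1 in Nip. In Nip the largest difference was that of MH02g0109900, which was listed at 0 in panicle, with an adjusted p of 0.000936 and the unequal mature leaf replicates given above. Towards panicle the largest difference in both varieties was that of MH10g0050900, with 38.9 and 51.6 FPKM in MH63 panicle and 55.6 and 46.4 in Nip panicle. It was listed at 0 in all mature leaf libraries (adjusted p = 1.03e-05 in MH63 and 1.99e-06 in Nip).

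Between mature leaf and root, 29 members were called in MH63 (19.3%, against 38.0% of all genes tested) and 31 in Nip (20.7%, against 34.8%). Of these, 18 and 23 were higher in mature leaf, and 15 were higher there in both varieties (10% of the members, against 12.6% of the genes tested in both). Root was higher for 11 members in MH63 and 8 in Nip, with 5 in common (3.33%, against 16.7%). Over all genes, 3730 were called higher in mature leaf and 5106 in root in MH63, and 3561 and 4362 in Nip. The median log2 difference was -0.0041 over the members and -0.17 over all genes in MH63, and 0.00 and -0.04 in Nip. Towards root the largest difference was that of MH11g0545500 in both varieties, -4.76 ± 0.38 in MH63 (adjusted p = 7e-05), where mature leaf was listed at 0, and -4.59 ± 0.44 in Nip (adjusted p = 0.000142), where mature leaf read 0 and 0.471 FPKM.

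Towards mature leaf it was MH02g0147800 in MH63, with 119 and 23.8 FPKM in mature leaf and 0 in both root libraries (adjusted p = 0.000388), and MH07g0397700 in Nip, at 5.29 ± 0.21 (adjusted p = 2.82e-06). The latter value reflected root levels of 2.03 and 2.07 FPKM in Nip. In MH63, where root held 155 and 122 FPKM, the same gene differed by 1.80 ± 0.36 (adjusted p = 0.00475). In ZS97 its root libraries read 199 and 207 FPKM. It had the highest root level of all members in both of these varieties.

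Panicle and root could be compared in all 3 varieties. In MH63, 27 members were called (18%, against 23.5% of all genes tested). Of them 10 were higher in panicle and 17 in root, against 2018 and 3450 of all genes. In ZS97, 28 of the members were called (18.7%, against 24.6% of 22261 genes), 8 higher in panicle and 20 in root, against 2350 and 3118 of all genes. In Nip, 19 were called (12.7%, against 22.1%), 12 higher in panicle and 7 in root, against 2201 and 2835 of all genes. The median log2 difference of panicle minus root was -0.08, -0.04 and 0.15 over the members in MH63, ZS97 and Nip, and 0.0049, 0.03 and 0.07 over all genes. In all 3 varieties 7 members were called higher in panicle (4.67%, against 5.54% of the 19997 genes tested in each) and 5 higher in root (3.33%, against 9.58%). Opposite calls were made for 0 members and 40 of all these genes (0.200%). Without ZS97 root replicate 1 or 2, the ZS97 count fell to 18 or 17 members, and the share of all genes fell as well, from 24.6% to 18.08% or 18.004%.

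The largest differences towards panicle were those of MH10g0050900 in MH63 and Nip and of MH05g0094700 in ZS97. MH05g0094700 held 108 and 167 FPKM in young leaf and 20.7 and 22.7 in panicle in MH63, 149 and 203 and then 52.5 and 23.7 in ZS97, and 76.0 and 106 and then 26.4 and 18.9 in Nip. It was listed at 0 in root in ZS97 and Nip and in all 6 mature leaf libraries (adjusted p = 0.00064 for panicle against root in ZS97). MH10g0050900 is described with its neighbours below (adjusted p = 2.04e-05 in MH63 and 5.01e-06 in Nip).

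Towards root the largest differences were those of MH10g0377500 in MH63 and of MH02g0109900 in ZS97 and Nip. In MH63, MH10g0377500 held 104.6 and 196 FPKM in young leaf, 15.98 and 12.9 in root and 0 and 0.0680 in panicle, a log2 difference of -3.89 ± 0.73 (adjusted p = 0.00539). Without MH63 root replicate 1 the adjusted p was 0.0577. MH02g0109900 held 34.9 and 32.2 FPKM in ZS97 root (adjusted p = 0.000869) and 52.2 and 24.2 FPKM in Nip root (adjusted p = 0.00142), and was listed at 0 in panicle.

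After young leaf, the members' order of tissues in Nip was not that of the other varieties. Root came next after young leaf for 55 members in MH63 and 50 in ZS97 but for 32 in Nip, where panicle came next for 68 members against 42 in MH63 and 47 in ZS97. A member with all other tissues listed at 0 in a variety was counted under panicle, so the panicle counts include members without a next tissue. At most this covers the members listed at 0 in both panicle libraries, 34 in MH63, 43 in ZS97 and 24 in Nip. No such counts were made over all genes. The summed level of the 150 members in root was 814 and 718 FPKM in the MH63 libraries, 815 and 812 in ZS97 and 393 and 346 in Nip. The Nip libraries were the lowest of the 6. A few genes carried much of this gap. Without MH07g0397700, MH05g0565300 and MH05g0144700, the 3 members of highest mean root level (left out after the data were seen), the root sums were 467 and 434 FPKM in MH63, 467 and 461 in ZS97 and 343 and 296 in Nip. The ratio of the MH63 to the Nip mean sum was then 1.41 in place of 2.07, and that of ZS97 to Nip 1.45 in place of 2.202. The young leaf sums of the members were also lowest in Nip, at 10262 and 12960 FPKM against 16109 to 18603 in the other 4 libraries. Without the same 3 members they were 9152 and 11316 against 12782 to 15016. The young leaf sums of all genes were lowest in Nip as well, at 516680 and 598601 FPKM against 654160 to 761333. As shares of these, the members held 1.99% and 2.17% in Nip and 2.22% to 2.84% in the others. In mature leaf the members' sums were 1743 and 1194 FPKM in MH63, 1500 and 1483 in ZS97 and 685 and 777 in Nip. In panicle the ranges of the 3 varieties overlapped, from 459 to 625 FPKM.

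**Figure D3:**
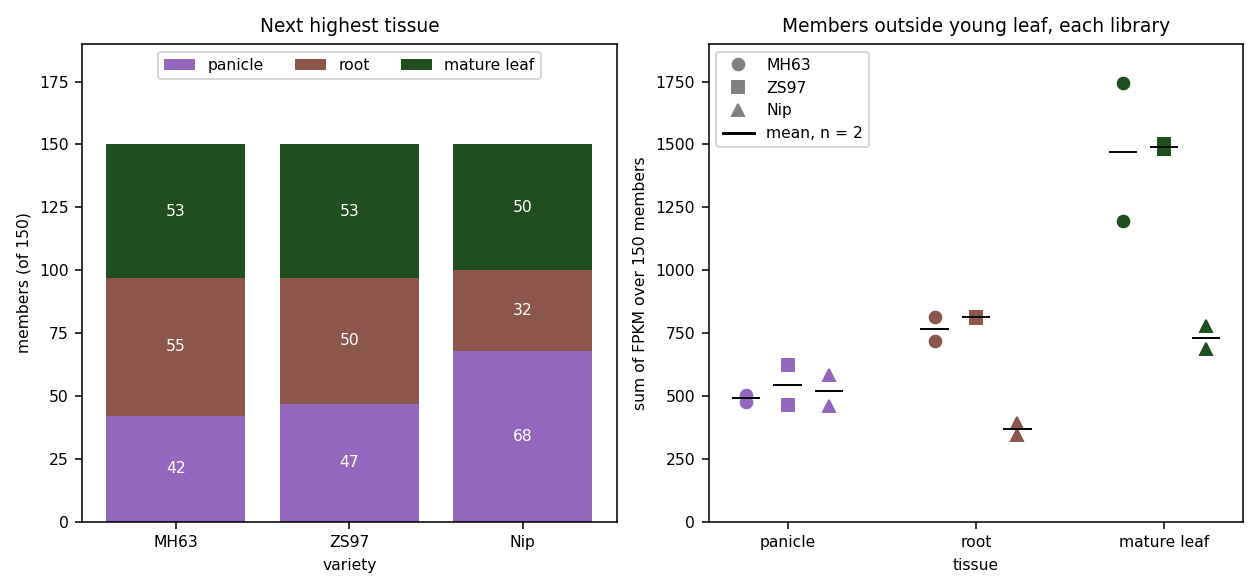
Left, number of the 150 members whose next highest tissue was panicle, root or mature leaf, by variety. Right, FPKM summed over the members in each library outside young leaf, with a line at the mean of the 2 libraries. Root is next for 32 members in Nip against 55 and 50 in MH63 and ZS97, and the Nip root sums (393 and 346) lie below the other 4 root libraries.

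Root levels above 1 FPKM in at least 1 variety were found for 69 members. In 48 of them both MH63 libraries lay above both Nip libraries (69.6%, against 49.4% of all 20811 genes with such a root level), and in 8 below (11.6%, against 28.8%). For ZS97 against Nip the counts were 48 above and 11 below, against 48.0% and 31.4% of all genes. Nip belongs to the other run, and these counts were not tested. The rule used the root levels of each variety, through the highest of the other tissues, so nothing is read from the gap to all genes. After quantile normalization of the 24 libraries, MH63 was above in 37 members and below in 14 (35.9% and 40.6% of all genes), and ZS97 above in 43 and below in 12 (38.6% and 38.7%).

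A list of 100 further genes that were high in both leaf stages, chosen without root values and after the data were seen, moved in the same direction. Their median level in root was 2.70 and 2.42 FPKM in MH63, 2.41 and 2.22 in ZS97 and 1.15 and 0.841 in Nip, and their median level in young leaf was also lower in Nip, at 82.2 and 104 FPKM against 141 to 189 in the other 4 libraries. The part of leaf transcripts in the root libraries in the members' root levels was not tested, and fewer cells of a type and less RNA per cell cannot be told apart in these tissue samples.

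In young leaf itself the levels of the members were compared across the varieties, without a test. The ratio of the highest to the lowest variety mean had a median of 1.92 in the members, against 1.62 over the 16460 genes above 1 FPKM in young leaf of all 3 varieties, and exceeded 5 in 11 members (7.33% of them, against 5.498% of all genes). The young leaf replicates of the members also stood apart more often than those of all genes in MH63 and ZS97, as given with the replicate differences below, and the part of that in the ratios was not tested. Nip was the lowest of the 3 in 88 members (58.7%, against 61.2% of all genes), and its score was the lowest in 73. The median young leaf level was 27.2 FPKM in MH63, 31.9 in ZS97 and 23.9 in Nip. These shares for Nip are near those of all genes.

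MH63 and ZS97 young leaf were in a shared run and were tested on the 4 young leaf libraries. Of the 150 members 3 were called (2.00%, against 2.55% of all 20664 genes tested), 1 higher in MH63 and 2 higher in ZS97. Over all genes, 350 were called higher in MH63 and 177 in ZS97. The median log2 difference was -0.08 over the members and 0.01 over all genes. The selection asked for a high young leaf level in both varieties. MH03g0320700 was higher in MH63, with 42.1 and 49.7 FPKM against 4.79 and 4.09 in ZS97 (log2 difference 3.11 ± 0.20, adjusted p = 0.0145), and Nip, at 6.95 and 4.25 FPKM, was close to ZS97. Its highest to lowest variety ratio of 10.3 was the largest among the members.

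MH11g0353500 was higher in ZS97, with 34.2 and 32.1 FPKM against 3.16 and 4.59 in MH63 (-2.82 ± 0.23, adjusted p = 0.0209), and Nip lay between them at 14.2 and 16.3 FPKM. MH11g0088300 was also higher in ZS97, with 30.9 and 35.9 FPKM against 7.24 and 8.11 in MH63 (-1.99 ± 0.19, adjusted p = 0.0271) and 10.96 and 17.53 in Nip. The libraries of MH63 and ZS97 did not overlap in these 3 genes. Without any 1 of the 4 libraries, limma called 0 of the 150 members, with 10 to 16 members at an unadjusted p below 0.05. These fits hold 1 variety with a single library, assumed to vary like the others, and call 2.43% and 2.56% of all genes without a library of MH63 and 0 genes without a library of ZS97. Genes at an unadjusted p below 0.05 were not counted over all genes, so nothing is read from that number of members. The log2 differences of the 3 genes moved little in these fits. They lay between 2.99 and 3.22 for MH03g0320700, -3.04 and -2.61 for MH11g0353500 and -2.09 and -1.88 for MH11g0088300. In data simulated for this comparison, with 200 of 20071 genes changed by 3 on the log2 scale, 57.0% of the changed genes were called, and 5 unchanged genes. The simulated libraries varied independently, whereas replicate differences in the data were shared by MH63 and ZS97 (correlation 0.52 over genes). The share called in the real libraries can therefore differ.

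**Figure D4:**
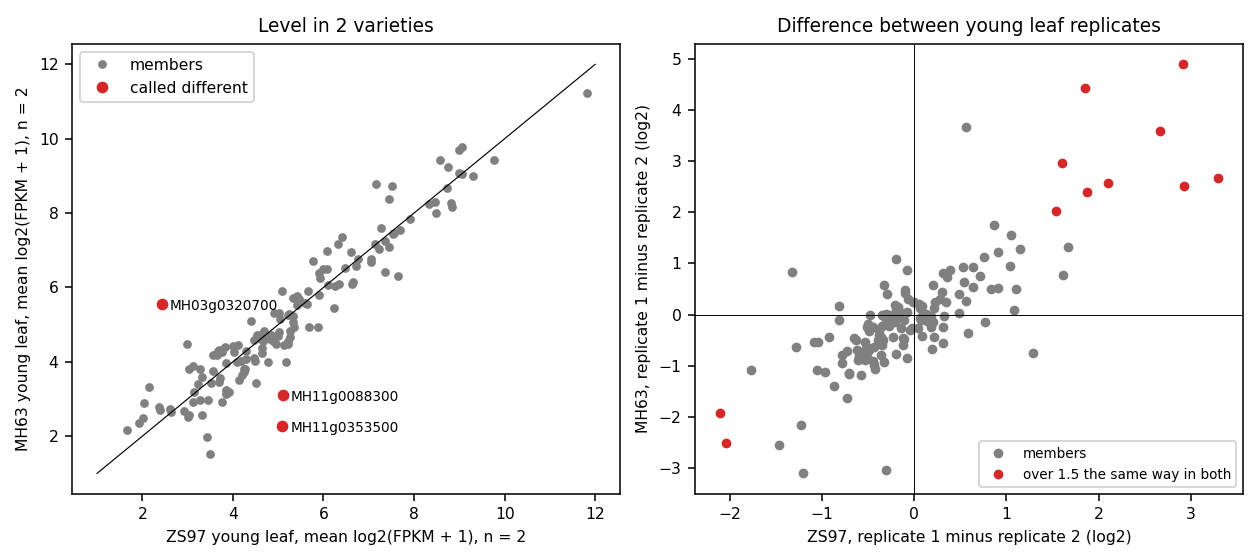
Left, mean log2(FPKM + 1) of each member in young leaf of MH63 against ZS97 (n = 2 libraries each, line of equal level), with the 3 called members in red. Right, log2 difference of young leaf replicate 1 minus replicate 2 of each member in MH63 against ZS97, with the 11 members over 1.5 the same way in both in red, 9 at upper right and 2 at lower left.

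The replicates of young leaf differed in a way that MH63 and ZS97 shared. On the log2(FPKM + 1) scale, replicate 1 and replicate 2 stood more than 1.5 apart for 19 members in MH63 (12.7%, against 6.28% of 20116 genes with a mean above 1 FPKM in young leaf), 14 in ZS97 (9.33%, against 3.87%) and 1 in Nip (0.667%, against 3.31%). In 11 members both MH63 and ZS97 were that far apart in the same direction (7.33%, against 2.14%), and in 0 in opposite directions. Replicate 1 was the higher in 9 of them and replicate 2 in 2. In Nip none of the 11 was apart by more than 0.95. The rule used the means of these same libraries, so a gene could enter through 1 high replicate. All genes here began at a mean of 1 FPKM and the members at 3.84 FPKM, and this scale understates the change of low genes. Nothing is read from the members' excess.

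MH04g0681700 read 369 and 16.1 FPKM in the 2 young leaf libraries of MH63 and 383 and 105.1 FPKM in ZS97, against 92.7 and 137 FPKM in Nip. Its root levels were steady, at 6.72 and 7.13 FPKM in MH63 and 5.44 and 6.35 in ZS97, and 0 and 0.0353 in Nip. In young leaf, MH01g0548100 read 803 and 102 FPKM in MH63, 794 and 261.5 in ZS97 and 620 and 540 in Nip. It held 18.1 and 21.1 FPKM in MH63 root and 21.6 and 22.95 in ZS97 root, but 0.566 and 0.688 in Nip root. The minimum scores of these genes, 4.61 and 4.46, became 1.07 and 2.23 when replicate 2 alone was used.

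Another 3 of the 11 are named here after their values were seen. In young leaf, MH10g0252700 read 85.2 and 1.90 FPKM in MH63 and 98.7 and 12.2 in ZS97, against 21.5 and 24.9 in Nip, so that in replicate 2 it fell below the root libraries of MH63 (9.57 and 10.8 FPKM) and ZS97 (15.97 and 16.3). MH10g0400700 read 1063 and 165 FPKM in MH63 and 572 and 57.4 in ZS97, against 232 and 309 in Nip. MH03g0683700 was 1 of the 2 members with replicate 2 the higher, with 19.1 and 113 FPKM in MH63 and 22.7 and 97.0 in ZS97, against 36.4 and 49.0 in Nip. The labels give no harvest time, day or batch for the replicates, and what the numbers mark was not tested.

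Some members lay next to each other in the identifier order of the MH63 genes. Directly neighbouring identifiers formed 4 runs with 9 members (6%), against 4 members for the panicle genes chosen by the same rule, 16 for the root genes and 12 for the mature leaf genes. Within 10 identifiers of each other lay 29 members (19.3%), against 22, 40 and 26. The young leaf genes thus lay between those of panicle and root, and these counts were not tested. Neighbouring genes are often copies of each other, and how the counting divided reads between near-identical copies is not given in the sources used here, so levels within a run are uncertain.

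The longest run was MH10g0050900, MH10g0051000 and MH10g0051100, whose 3 profiles were alike. In young leaf MH10g0050900 held 241 and 389 FPKM in MH63, 378 and 531 in ZS97 and 239 and 340 in Nip, MH10g0051000 held 204 and 321, 298 and 430, and 117 and 150 FPKM, and MH10g0051100 held 420 and 682, 413 and 635, and 95.8 and 165 FPKM. Panicle came next for all 3 genes in every variety. MH10g0051000 had the lowest panicle level in ZS97, 5.70 and 7.86 FPKM, and all panicle libraries of MH10g0051100 lay between 16.7 and 35.4 FPKM. In root and mature leaf no library of the 3 genes exceeded 0.314 FPKM. In each of the 3 genes and each variety replicate 2 was the higher of the young leaf libraries.

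**Figure D5:**
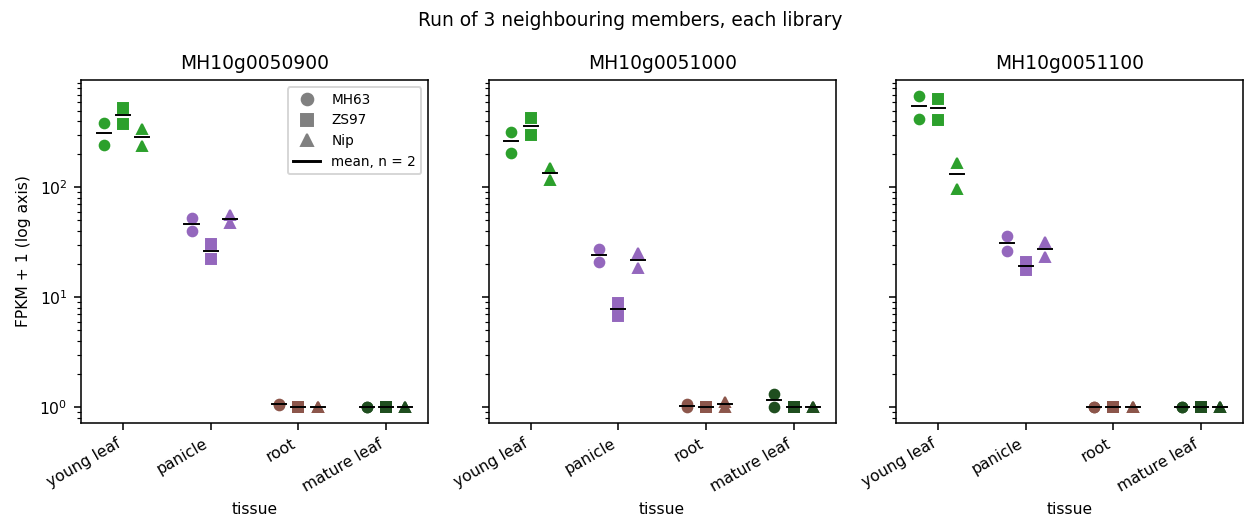
FPKM + 1 on a log axis of the 3 neighbouring members in each library, by tissue and variety, with a line at the mean of the 2 libraries. Young leaf is highest, panicle follows at 5.70 to 55.6 FPKM, and root and mature leaf lie at the floor of the axis with at most 0.314 FPKM.

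The neighbouring pairs of highest rank were MH04g0504900 with MH04g0505000 and MH01g0787400 with MH01g0787500. MH04g0505000, ranked 20th, held 21.5 and 20.98 FPKM in young leaf of MH63, 43.1 and 30.4 in ZS97 and 35.1 and 38.4 in Nip. Outside young leaf it reached 1.18 to 2.71 FPKM in panicle and mature leaf of Nip and at most 0.331 FPKM in the other varieties. MH01g0787400 held 20.9 to 36.9 FPKM in young leaf of MH63 and ZS97 and 10.3 and 22.5 in Nip, and MH01g0787500 held 11.95 to 18.1 and 4.79 and 6.79 FPKM. Neither exceeded 0.816 FPKM in any other library. Close to other leading members lay MH06g0267700 (near MH06g0267900), MH02g0223800 (near MH02g0224000) and MH11g0545500 (near MH11g0544800). MH11g0545500 and MH11g0544800 shared a lower young leaf level in Nip and root as the next tissue.

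Whether genes chosen in this way in 2 varieties were also young leaf genes in the remaining variety was tested on libraries that the choice did not use. Of 150 genes chosen by the minimum score over MH63 and ZS97 alone, 127 had a score above 0 in Nip and 114 a score above 1, against 2.46% of all listed genes. Their median score in Nip was 2.23. In the limma fit of the Nip libraries, 99 of the 150 (66.0%) were called higher in young leaf than in each of the other 3 tissues. This compares with 2.70% of the 22774 genes tested, and 11 of the 150 did not pass the filter on low values. Among the 150 were 94 members, and all 94 were called, with 5 others. The rule that chose the members used Nip, so these calls are no separate support for the members. The lowest score among the 150 in Nip was -2.51.

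Of 150 genes chosen by ZS97 and Nip alone, 141 had a score above 0 in MH63. In the fit of the MH63 libraries 111 (74.0%) were called higher in young leaf than in each other tissue, against 2.01% of the 23257 genes tested. Of the 150, 1 did not pass the filter. Of the 111 called, 107 were members, chosen with MH63 included, and 4 were not. Of 150 genes chosen by MH63 and Nip, 145 had a score above 0 in ZS97 and 142 above 1, which was not tested because its mature leaf libraries belong to another run. Genes chosen on replicate 1 of all groups had a minimum score above 1 in replicate 2 for 129 of 150, and genes chosen on replicate 2 had one in replicate 1 for 120 of 150, against 0.696% and 0.488% of all listed genes.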

How the data were processed

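The deposited values are FPKM. The authors trimmed the reads with Trimmomatic, mapped them with TopHat2 to the MH63 or ZS97 reference genome and quantified genes with Cufflinks (2.2.5 in the submitters' processing notes, another version in the study's methods). Where ZS97 or Nip transcripts diverge from the MH63 genes, their reads would be lost. Replicates were not pooled. The 24 libraries with MH63 identifiers were joined by identifier, and 34 libraries were not used.

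Members, lists and tests were chosen with earlier results of these data known. Scores used a pseudocount of 1. The tests, two-sided, were those of limma (3.58.1) in R 4.3.3, run on log2(FPKM + 1) with lmFit and trended eBayes. Genes entered a fit where some group mean in it was over 1 FPKM. A fold change on this scale understates the change of low genes. All 8 libraries of MH63 or Nip entered 1 fit, as did the 6 libraries of ZS97 in the first run and the 4 young leaf libraries. The thresholds of a call were an adjusted p (Benjamini-Hochberg, over all genes tested) of 0.05 and a log2 difference of 1.5. A sequencing depth could not be given, only a relative one from the steps of values between 0.001 and 0.3 FPKM. The estimate of relative depth was tested on simulated data. So were the fits of MH63 against ZS97 young leaf, mature leaf against root in MH63 and Nip, and panicle against root in ZS97. The other comparisons were not.

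Genes were named by rule: the 12 members of highest minimum score, the 6 of highest young leaf level, 2 on each side of the limit, up to 4 called members in each direction between MH63 and ZS97, the called member of largest difference in each direction of each other comparison, and the longest run and the 2 leading pairs of neighbours. Others are named as chosen after their values were seen, or as neighbours of these. Alternatives were the pseudocount, quantile normalization, the filter, the fold cutoff, eBayes without a trend, the replicate number as a block, and each library or variety left out. Other steps used Python 3.11.15, numpy 2.4.6 and pandas 2.3.3.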

Additional observations from a re-analysis of the deposited data

Results flagged for a closer look

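In 3 of the named members the order of 2 tissues was opposite in Nip and in MH63 or ZS97, and within each of these varieties the libraries of the 2 tissues did not overlap. The difference between varieties was not tested, since Nip belongs to another run. For MH01g0548100, mature leaf minus root on the log2(FPKM + 1) scale was -2.38 in MH63 and 1.17 in Nip, and panicle minus root was -2.34 in MH63, -1.93 in ZS97 and 1.21 in Nip. For MH07g0496800, panicle minus root was -0.77 in MH63, -0.53 in ZS97 and 1.49 in Nip. For MH05g0565300, the last member but 1, mature leaf minus root was -0.87 in MH63 and 0.19 in Nip, and panicle minus root was -0.91 in MH63, -0.67 in ZS97 and 0.49 in Nip. Over all members, an opposite order without overlap in some pair of tissues other than young leaf was found in 17 of 86 members (19.8%). This compares with 15.9% of 21640 genes. Counted were genes with a mean above 1 FPKM in either tissue of such a pair, in at least 2 varieties.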

How the results depend on the processing

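Of the 150 members, 118 and 112 were kept with a pseudocount of 0.1 and 5, 132 after quantile normalization, 123 to 127 without replicate 1 or 2, 127 with the lower young leaf library set against the highest other library, 101 with a young leaf level of at least 10 FPKM in each variety, 114 without MH63, 129 without ZS97 and 94 without Nip, and 99 with the median over the varieties. Nip thus bore most on which genes were chosen.

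A pseudocount of 0.1 raised the members called between mature leaf and root to 66 in MH63 and 64 in Nip, between mature leaf and panicle to 69 in both, and between panicle and root to 58 in MH63, 61 in ZS97 and 55 in Nip. These are 36.7% to 46% of the members, against 30.8% to 47.7% of all genes. For mature leaf against root in MH63 the shares went from 19.3% of the members against 38.0% of all genes to 44% against 47.7%. For panicle against root, and for mature leaf against panicle in Nip, the members' share passed that of all genes. At this pseudocount values near 0 weigh more. With no mean above 1 FPKM outside young leaf, 37 members entered the fits through young leaf alone, so nothing is read from these shares. A log2 cutoff of 1 gave 44 for panicle against root in ZS97 (29.3%, against 36.2% of all genes) and 39 in Nip (26%, against 36.1%). Leaving out a library gave 17 to 31 for panicle against root in ZS97 and 0 for MH63 against ZS97 young leaf. Quantile normalization changed the split to 37 towards mature leaf and 13 towards panicle in MH63, against 4207 and 4483 of all genes. In ZS97 it gave 13 higher in panicle and 19 in root, against 2555 and 3002 of all genes. Under quantile normalization the median log2 difference of all genes was 0.14 for panicle against root in MH63, in place of 0.0049. The genes chosen without Nip and called in Nip numbered 89 to 113 over all alternatives, and those chosen without MH63 and called in MH63 107 to 121. The share of all genes called was 1.89% to 4.81% in Nip and 1.36% to 3.48% in MH63. Of 187 alternatives for the 17 named differences, 174 kept the call and none changed its direction.

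The replicate numbers are shared by all groups, but the labels tie them to no plant or batch. Replicate differences correlated at 0.52 over genes between MH63 and ZS97 young leaf (0.81 over the members), and at -0.04 to 0.04 in the other comparisons. With the replicate block, 4 members were called between MH63 and ZS97 young leaf in place of 3 (2.67%, against 2.81% of all genes). An unadjusted p below 0.05 was found for 58 members in place of 18. This was not counted over all genes, so nothing is read from it. For mature leaf against root the block gave 30 in MH63 (20%, against 38.1% of all genes) and 31 in Nip (20.7%, against 34.8%). For mature leaf against panicle it gave 36 (24%, against 37.5%) and 37 (24.7%, against 32.3%). For panicle against root it gave 27 in MH63 (18%, against 23.5%), 28 in ZS97 (18.7%, against 24.3%) and 18 in Nip (12%, against 22.1%). Genes chosen on other varieties and called numbered 99 in Nip (66%, against 2.72%) and 111 in MH63 (74%, against 2.03%).

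Low depth limits low values most. In ZS97 panicle replicate 1, of relative depth 0.176, the median member was listed at 0. With 2 libraries a group, small differences between varieties could not be called.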
